A study of Mus musculus with 8 samples.

Results

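Cytosolic ribosomal protein genes encode the protein components of the ribosomes that translate nuclear messenger RNAs. They were followed here in RNA of HL1 cells, a cardiac muscle line derived from mouse AT-1 atrial cardiomyocytes. A gene was included when an assembled locus of the short-read table lay on its strand, shared at least 0.5 of the joint span with it (the Jaccard index), and the protein-coding gene in GENCODE M21 (mm10) had a symbol starting with Rpl or Rps and a digit, or was Rpsa, Rplp0, Rplp1 or Rplp2. Kinase genes with symbols starting Rps6k were left out. Of 92 annotated genes that fit this rule, 77 had such a locus, among 20637 assembled loci and 65265 genes listed in all. They comprised 44 genes with large-subunit names and 33 with small-subunit names, spread over 19 chromosomes. The set held 68 main genes, 5 intronless copies (Rpl10-ps3, Rpl36a-ps1, Rpl9-ps6, Rps12-ps3 and Rps27rt, which GENCODE M21 types as protein-coding) and 4 paralogues or neighbours in name (Rpl22l1, Rpl36al, Rps27l and Rps19bp1). Rps19bp1 encodes an Rps19-binding protein and is no ribosome component.

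Nuclei of untreated HL1 cells, grown with norepinephrine in Claycomb medium, were extracted with urea and a detergent and centrifuged. The supernatant was the nucleoplasm fraction and the pellet the chromatin fraction. Short-read libraries of both fractions came from 3 independent cultures, though the labels do not tie a replicate number to a culture, and 2 further libraries of chromatin RNA were sequenced as long-read cDNA on a nanopore instrument. HL1 is a single line kept in culture, so these values describe that line and not atrial tissue. The label for the RNA fraction reads chromatin in all libraries, and the 3 nucleoplasm libraries were taken as such from their titles.

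Each ribosome has a large and a small subunit, and most of their proteins are present once in each ribosome, with the stalk proteins Rplp1 and Rplp2 present in more copies. The genes are transcribed by RNA polymerase II, at high rates in growing cells, and the short spliced mRNAs are exported to the cytoplasm for translation. Their mRNAs typically start with a cytidine and an unbroken run of pyrimidines, the 5′ terminal oligopyrimidine (TOP) motif, through which mTOR signalling controls translation. Several of the genes also carry small nucleolar RNAs (snoRNAs) in their introns, which are released from the spliced intron and guide modification or cleavage of ribosomal RNA in the nucleolus. Cardiac muscle cells raise ribosome production when they grow.

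The start regions were shown first because a TOP motif, where present, lies there. RefSeq promoters (GRCm38.p6, the assembly of mm10) were found for 55 of the 77 genes and not for the other 22. The window printed runs from 15 bases before the annotated start to 15 bases from it, on the strand of the gene, and capitals mark its longest unbroken run of C and T. The annotated start need not be the site used in HL1 cells. The first set holds the genes lowest in chromatin against nucleoplasm.
Rps16, chr7:28350674-28350703, plus strand: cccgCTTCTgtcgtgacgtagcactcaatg
Rps26, chr10:128626492-128626521, minus strand: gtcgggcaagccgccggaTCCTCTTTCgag
Rplp2, chr7:141447636-141447665, plus strand: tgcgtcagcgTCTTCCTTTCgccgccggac
Rps21, chr2:180257364-180257393, plus strand: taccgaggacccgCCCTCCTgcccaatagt
The second set holds the genes closest to equal levels in the fractions.
Rpl38, chr11:114668565-114668594, plus strand: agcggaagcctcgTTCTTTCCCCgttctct
Rpsa, chr9:120127751-120127780, plus strand: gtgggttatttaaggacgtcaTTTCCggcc
Rpl22l1, chr3:28805493-28805522, plus strand: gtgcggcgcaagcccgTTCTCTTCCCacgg
Rps3, chr7:99483695-99483724, minus strand: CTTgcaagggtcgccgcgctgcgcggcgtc
The third set holds the longest runs found.
Rpl7a, chr2:26910792-26910821, plus strand: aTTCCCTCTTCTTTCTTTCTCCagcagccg
Rpl27a, chr7:109519180-109519209, plus strand: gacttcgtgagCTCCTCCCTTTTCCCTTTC
Rpl35, chr2:39005117-39005146, minus strand: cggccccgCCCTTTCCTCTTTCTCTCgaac

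The longest run in the window was between 2 and 21 bases, with a median of 7 over the 55 genes. The annotated start was a C in 18 of the 55, with no share over all promoters beside it. Of the 64 promoters listed for these genes, 40.6% held a run of at least 8 bases, against 12% of all 32851 promoters. The letters CCGGAA, in either orientation and anywhere in the 300 bases listed, were in 50.0% of the 64 promoters and in 14.9% of all. These letters are the core of the ETS family motif, and AAGATGG, the core of the YY1 motif, was in 10.9% and 6.34%. Both kinds of gene, those lowest in chromatin and those closest to equal, had long and short runs, as the printed windows show. The median log2 fold change (chromatin minus nucleoplasm) was -2.27 in the 24 genes with a run of at least 8 bases and -2.26 in the 31 with a shorter one. It was -2.33 in the 28 genes with CCGGAA in the promoter used and -2.24 in the other 27.

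Ribosomal protein RNA was lower in the chromatin fraction than in nucleoplasm for nearly the whole set. In the deposited normalized read counts, 74 of 77 genes were lower in chromatin at an adjusted p under 0.05 (limma on log2(count + 1), Benjamini-Hochberg over 35830 genes above 0, including 86 ERCC standards), and none was higher, since every estimate was below 0. edgeR and DESeq2 on the recovered reads also called 74 lower and 0 higher. Of all genes tested, 20.9% were lower and 26.9% were higher. The share lower was 43.4% among 10957 assembled protein-coding loci and 43.3% among 9121 genes with a mean of at least 1000 normalized counts. A decrease of more than 4-fold was called for 55 of the 77, against 4.90% of all genes tested and 8.51% of genes with a mean of at least 1000. Every chromatin library lay below every nucleoplasm library for 74 of the 77, against 23.8% of all genes. In a bulk fraction, fewer cells with an RNA and less of it per cell cannot be told apart.

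The median log2 fold change of the 77 genes was -2.27, with quartiles at -2.43 and -1.97, while the median of all genes tested was 0.38. The large subunit had a median of -2.26 and the small subunit of -2.29. Of the 44 large-subunit genes 43 were lower, and of the 33 small-subunit genes 31 were lower. The 5 intronless copies were all lower, between -2.46 and -2.17. The genes thus formed a narrow group with a few members apart from it. Of the 77, 68 lay between -2.9 and -1.5, Rps16 lay below at -3.35, and 8 lay above -1.5, as the plot of log2 fold changes by gene shows.

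**Figure D1:**
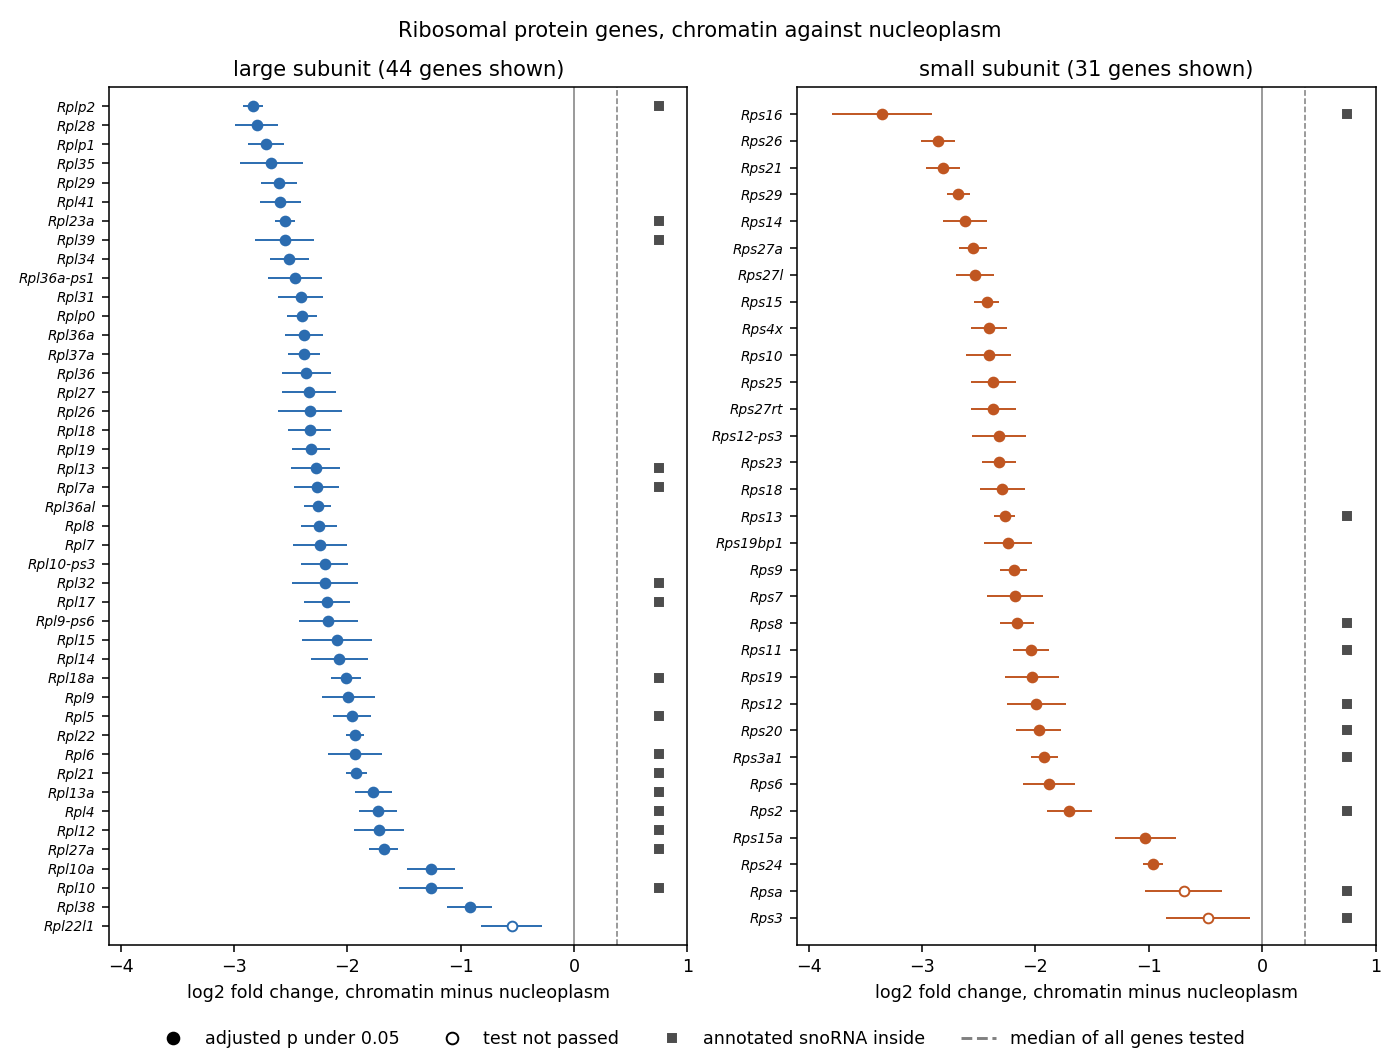
Log2 fold change (chromatin minus nucleoplasm, x axis) of the 44 large-subunit genes and of 31 of the 33 small-subunit genes (y axis), with bars of 1 standard error from limma over 3 libraries per fraction, filled where the adjusted p was under 0.05; squares at the right mark genes with an annotated snoRNA. Almost all genes lie near -2.27, and Rps3, Rpsa and Rpl22l1 (open) lie nearest to 0; the dashed line is the median of all genes tested, 0.38.

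The scale on which the fractions were compared moves these values. ERCC standards, synthetic RNAs added in equal volume to each fraction, took 0.193% to 0.209% of the chromatin counts and 0.298% to 0.340% of the nucleoplasm counts. When libraries were brought to equal sums of the standards, 68 of 77 genes were lower in chromatin, none was higher, and the median log2 fold change was -1.53. On that scale 8.67% of all genes tested were lower and the median of all genes was 0.84. Libraries also differed within a fraction, since 62 of the 77 genes were highest in replicate 3 among the chromatin libraries, and 70 were highest in replicate 3 among the nucleoplasm libraries. Without chromatin replicate 3, all 77 were lower in limma's test, with 21.8% of all genes lower and a median of -2.40.

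As a share of all mouse normalized counts, the 77 genes together took 0.249%, 0.281% and 0.404% of the chromatin libraries (replicates 1, 2 and 3) and 1.05%, 0.978% and 1.53% of those from nucleoplasm. The groups did not overlap. Chromatin averaged 0.311% ± 0.0819 (SD, n = 3), nucleoplasm averaged 1.18% ± 0.299 (SD, n = 3), and the ratio of these means was 3.80. The large-subunit genes had a ratio of 4.2 and the small-subunit genes of 3.38. Rps3 and Rpsa, both among the highest small-subunit genes in chromatin, are the 2 small-subunit genes that did not pass the test.

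Levels between genes were compared per kb of annotated exons, pooled over all transcripts of a gene. In nucleoplasm the mean normalized count per kb ran from 974 for Rpl22l1 to 67493 for Rplp1, with a median of 12679. In chromatin it ran from 229 for Rps19bp1 to 14823 for Rps3, with a median of 2682. The interquartile ratio per kb was 3.52 in nucleoplasm and 3.90 in chromatin. For mean counts not divided by length it was narrower, at 2.23 and 3.09. The pooled exon length ran from 374 bases for Rps27rt to 6000 for Rps15a, so spread and rank per kb depend on the annotation. The order of the genes per kb was much the same in both fractions. Spearman's rho between fractions was 0.91 over the 77 genes, which share libraries and lengths, and it is given as a description.

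**Figure D2:**
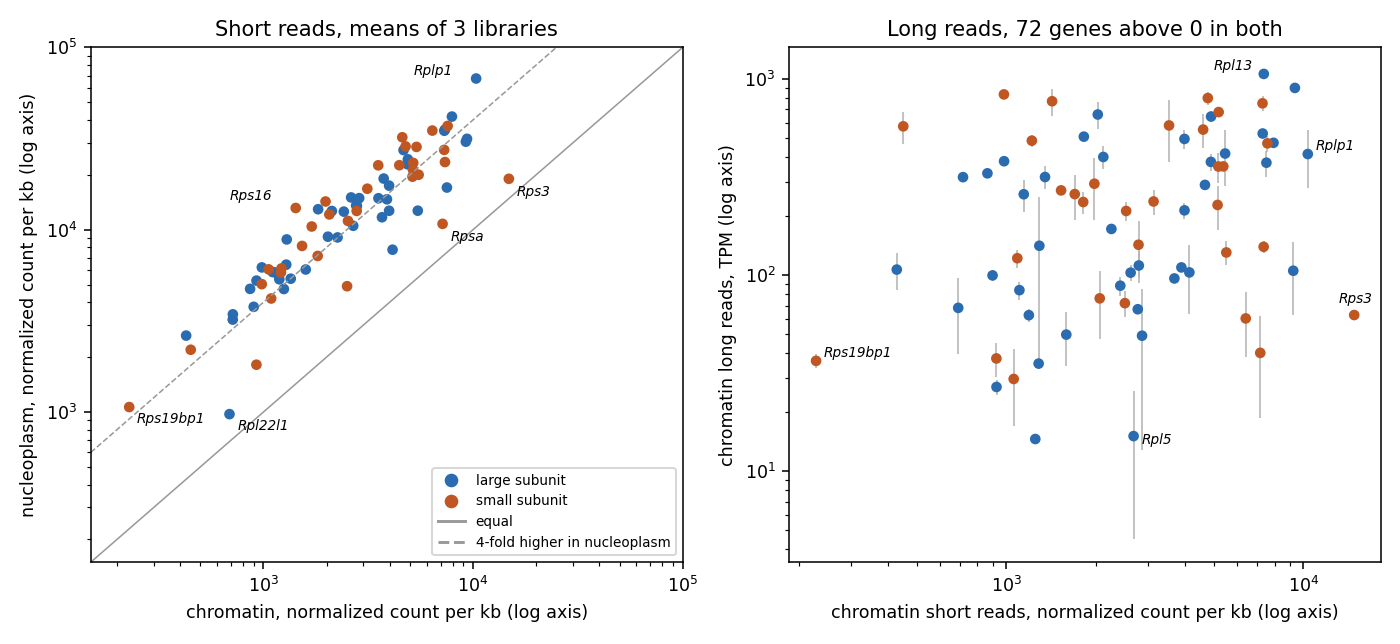
Left, mean normalized count per kb in nucleoplasm (y axis) against chromatin (x axis), both on log axes, for 77 genes. Most points lie near the dashed line of 4-fold higher nucleoplasm levels, and Rps3, Rpsa and Rpl22l1 lie nearest to the line of equal levels. Right, long-read TPM in chromatin (y axis, points are means and grey lines join both libraries) against the short-read chromatin level (x axis), both on log axes, for the 72 genes above 0 in both long-read libraries. The cloud is broad, with Rps3 at the right and below most genes. TPM was counted from models mostly inside the gene on its strand, snoRNA models included.

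Among large-subunit genes, the highest levels per kb belonged to the ribosomal stalk genes Rplp1 and Rplp0, and to Rpl13 and Rpl8. The stalk is the lateral protuberance of the large subunit that recruits translation factors, built on Rplp0 with Rplp1 and Rplp2. Rplp1 had 4172, 5097 and 6217 normalized counts in chromatin and 30807, 33419 and 36810 in nucleoplasm (log2 fold change -2.72, SE 0.16, limma adjusted p = 6.13e-05). Rplp0 had 10848, 14191 and 12774 in chromatin and 61622, 68752 and 68550 in nucleoplasm (log2 fold change -2.40, SE 0.13). Rplp2 had 1792, 1994 and 1969 in chromatin and 13188, 12974 and 14706 in nucleoplasm (log2 fold change -2.83, SE 0.09), and with the counts of the snoRNA locus assembled inside it added, its log2 fold change was -1.68 (limma adjusted p = 0.00937). For all 3 stalk genes every chromatin library lay far below every nucleoplasm library. Rpl8 and Rpl13, both core proteins of the large subunit, had log2 fold changes of -2.25 (SE 0.16) and -2.28 (SE 0.22), close to the median of the set. Rpl13 had 4660, 5203 and 7350 in chromatin, with replicate 3 highest, and 23757, 24715 and 34463 in nucleoplasm. Rpl8 had 6806, 8736 and 7303 in chromatin and 30603, 37067 and 41621 in nucleoplasm.

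Among small-subunit genes, Rps18, Rps21 and Rps3a1 were among the highest per kb by the mean over all libraries. Rps18 belongs to the head of the small subunit. Rps18 had 3466, 4144 and 5101 normalized counts in chromatin and 17207, 19358 and 25717 in nucleoplasm (log2 fold change -2.29, SE 0.20). Replicate 3 held its highest value in each fraction, and the fractions did not overlap. Rps3a1, which carries 2 annotated snoRNAs, had 6616, 6661 and 8072 in chromatin and 26942, 24795 and 28590 in nucleoplasm (log2 fold change -1.92, SE 0.12). Its decrease was smaller than that of Rps18, but the difference between genes was not tested.

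The lowest log2 fold changes belonged to Rps16, Rps26, Rplp2 and Rps21, although Rplp2 lay above the median of the set, at -1.68 against -2.26, once the locus inside it was added. Rps16 (chr7:28350689-28352698) had 1846, 2202 and 697 normalized counts in chromatin and 17246, 12385 and 14139 in nucleoplasm (log2 fold change -3.35, SE 0.44, limma adjusted p = 0.00124). Chromatin replicate 3, in which most of these genes were highest, held the lowest value of Rps16. Rps26 (chr10:128624529-128626650), which lines the mRNA exit channel, had 1392, 1536 and 1116 in chromatin and 9442, 8814 and 10914 in nucleoplasm (log2 fold change -2.86, SE 0.15). Rps21 had 1540, 1748 and 2146 in chromatin and 11989, 11833 and 14152 in nucleoplasm (log2 fold change -2.81, SE 0.15). For these 4 genes the nucleoplasm level was between 7.03-fold (Rps21) and 10.2-fold (Rps16) above the chromatin level.

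Rps3, Rpl22l1 and Rpsa did not pass the test. Rps3 (chr7:99477709-99483709), which forms part of the mRNA entry site and also has a described role in DNA repair, had 23676, 16175 and 44996 normalized counts in chromatin and 32456, 33957 and 42449 in nucleoplasm. Its chromatin replicate 3 lay above every nucleoplasm library, and the log2 fold change was -0.48 (SE 0.37, limma adjusted p = 0.363). Rpsa (chr9:120127766-120134108), the small-subunit protein also known as the laminin receptor, had 13021, 12789 and 28974 in chromatin and 24811, 26753 and 30825 in nucleoplasm. Its chromatin replicate 3 lay within the range of nucleoplasm, and the log2 fold change was -0.69 (SE 0.34, limma adjusted p = 0.145). Without chromatin replicate 3 the values were -0.88 for Rps3 (limma adjusted p = 0.0267) and -1.08 for Rpsa (limma adjusted p = 0.00169). On the ERCC scale they were 0.25 and 0.04 and did not pass the test.

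Rpl38, which is required for translation of a subset of Hox mRNAs in the mouse embryo, was the fourth of the genes nearest to equal levels. It had 1979, 1901 and 2839 normalized counts in chromatin and 3786, 3785 and 5060 in nucleoplasm, a decrease by 1.89-fold (log2 fold change -0.92, SE 0.20, limma adjusted p = 0.0100). The groups did not overlap, and replicate 3 was highest in both. On the ERCC scale its log2 fold change was -0.19 (limma adjusted p = 0.661). Next in this order, Rps24, Rps15a, Rpl10 and Rpl10a had log2 fold changes of -0.96, -1.03, -1.26 and -1.26. All 4 were lower in the main test, and on the ERCC scale none of the 4 passed it.

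**Figure D3:**
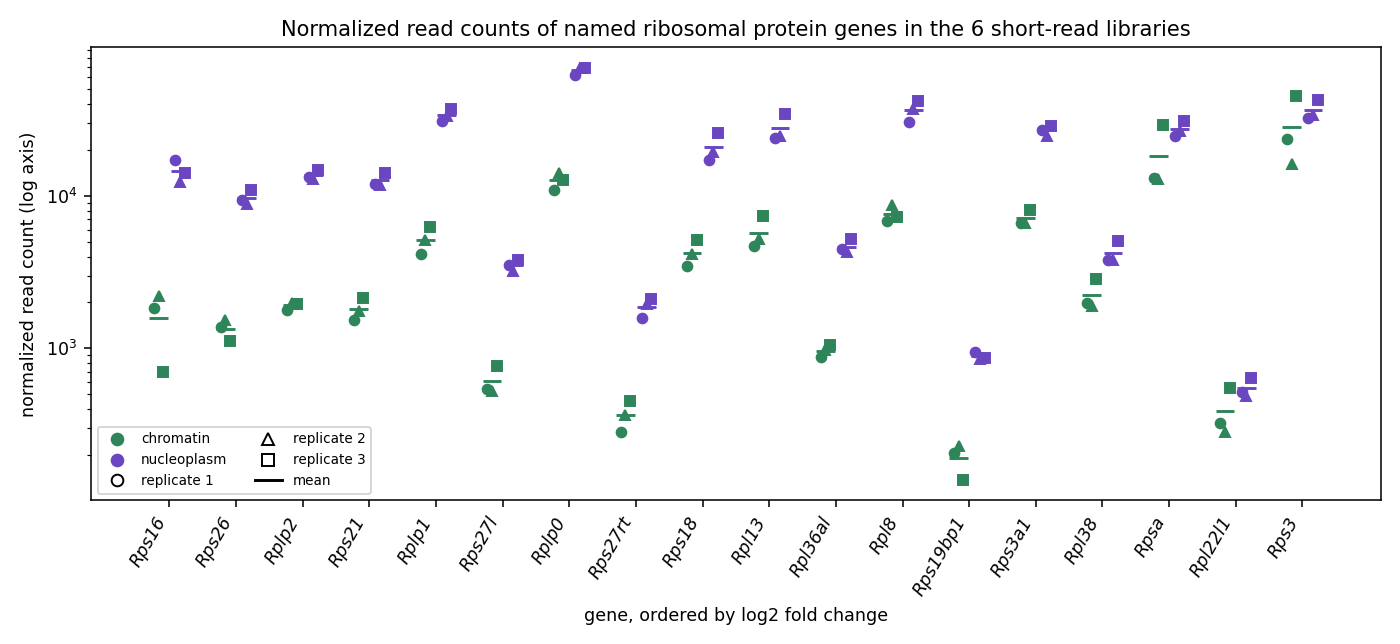
Normalized read count (y axis, log axis) of named genes (x axis, ordered by log2 fold change) in each of the 3 chromatin (green) and 3 nucleoplasm (purple) libraries, with bars at the means. For Rps16, at the left, chromatin replicate 3 is the lowest library at 697, and for Rps3, at the right, chromatin replicate 3 is the highest at 44996.

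Genes caught by name were set beside their namesakes. Rpl22l1, a paralogue of Rpl22, had 323, 284 and 553 normalized counts in chromatin and 516, 488 and 636 in nucleoplasm (log2 fold change -0.55, SE 0.27, limma adjusted p = 0.152). Its chromatin replicate 3 lay above nucleoplasm replicates 1 and 2, and without that library it passed the test at -0.84 (limma adjusted p = 0.00991). Rpl22 itself had 3240, 3481 and 3141 in chromatin and 12515, 12754 and 12212 in nucleoplasm (log2 fold change -1.93, SE 0.08). Per kb, Rpl22 was 2.31-fold above its paralogue in chromatin and 6.21-fold above it in nucleoplasm. Rpl36al, with at most 2 exons where Rpl36a has 5, had a log2 fold change of -2.26, beside -2.38 for Rpl36a. Rps27l, a p53 target, had a log2 fold change of -2.53, and Rps27rt, an intronless copy of Rps27, of -2.37. Rps27 itself lay in a locus that shares 0.02 of the joint span with it, and the log2 fold change of that locus was -2.08. Rps19bp1, the lowest in chromatin per kb, had 208, 230 and 138 in chromatin and 954, 858 and 865 in nucleoplasm (log2 fold change -2.24), beside -2.03 for Rps19.

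In short reads, Rpl10-ps3, Rpl36a-ps1, Rpl9-ps6 and Rps12-ps3 had lower levels per kb than their parents in both fractions. Rps27rt was not compared, since the locus of Rps27 lay below the overlap minimum. Rps12-ps3 had 450 normalized counts per kb in chromatin and Rps12 5142. In nucleoplasm Rps12-ps3 had 2196 and Rps12 19536. For Rpl10-ps3 the ratio of parent to copy was 3.69 in chromatin and 1.86 in nucleoplasm. Reads of 50 bp from a copy and its parent can be assigned to either where the sequences are the same, so these levels are uncertain. In chromatin long reads the order was reversed for Rpl10-ps3, Rps12-ps3 and Rpl36a-ps1. Rps12-ps3 had 683 and 465 TPM there, beside 286 and 170 for Rps12. Rpl9-ps6 was at 0 in both long-read libraries, below Rpl9. The short-read table also held 122 processed pseudogenes named after 44 of the genes, with up to 106% of the parent's nucleoplasm mean, for Rpl31. With those counts added to the parents, 75 of 77 genes were lower, and the median was -2.28.

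Of the 92 annotated genes, 10 had a locus below the overlap minimum and 5 had no assembled locus (Rpl10l, Rpl3l, Rpl39l, Rpl36-ps4 and Rpl9-ps1). Just inside the minimum were Rpl18, Rpl19, Rps2 and Rps19, each at 0.51, with log2 fold changes of -2.33, -2.32, -1.70 and -2.03. Just outside it were Rpl23 and Rpl30, both at 0.45, with -1.94 and -0.55. Among the 10 loci below the minimum, 9 were lower in chromatin and the median was -1.77. Where the assembled locus runs past the gene, its counts can include other RNA. The symbol rule also misses Fau and Rack1, which encode a ribosomal protein fused to a ubiquitin-like protein and a scaffold of the small subunit. Fau had a log2 fold change of -2.47 (SE 0.10) and Rack1 of -1.70 (SE 0.28), and both were lower by limma's test.

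Of the 77 genes, 26 held an annotated snoRNA on their strand and 51 did not. The median log2 fold change was -1.98 in the 26 hosts and -2.34 in the other 51. A decrease of more than 4-fold was called for 12 of the hosts and for 43 of the others. In the 13 genes with at least 2 snoRNAs the median was -1.92, and it was -1.73 for Rpl4, the host of 5. Over the 72 genes with introns, Spearman's rho of log2 fold change with the number of snoRNAs was 0.39, with exon number 0.40 and with the span of the gene 0.34, and over all 77 it was 0.39 with the length of annotated exons. The number of snoRNAs itself had a rho of 0.41 with exon number and of 0.12 with span. These are descriptions over genes that share libraries, and the part of each feature was not tested. The order had exceptions at both ends, as Rps16, a host, was lowest, and Rps24, Rpl38 and Rps15a, which hold none, were among the highest. Loci assembled inside a host were counted apart from it. With the 3 such loci added to their hosts, 74 of the 77 genes were lower, as before.

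**Figure D4:**
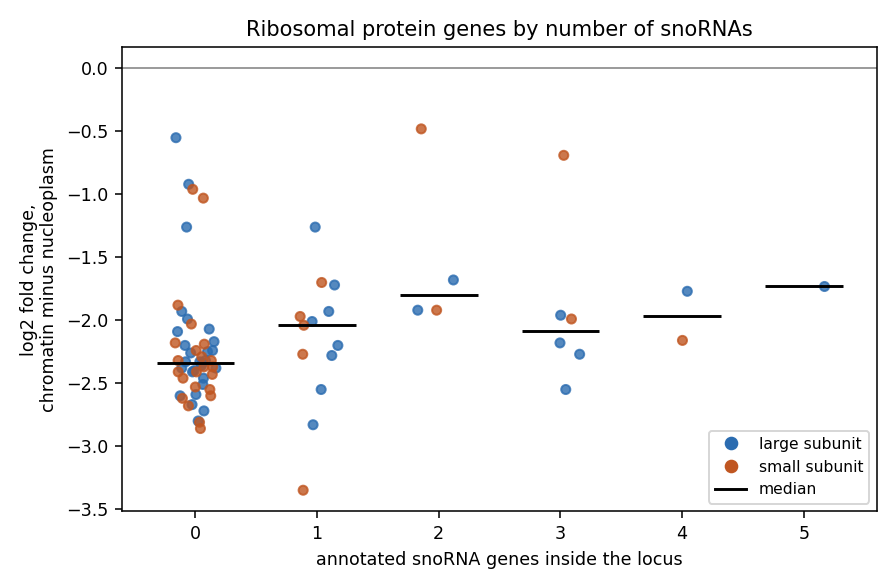
Log2 fold change (chromatin minus nucleoplasm, y axis) of the 77 genes by the number of annotated snoRNA genes inside the locus (x axis), with black bars at the medians. The median is -2.34 for genes without a snoRNA and -2.04, -1.80 and -2.08 for those with 1, 2 and 3.

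Genes at both ends of the order host snoRNAs. Snora52, an H/ACA snoRNA, lies in an intron of Rplp2 at chr7:141448803-141448939, and Rps3 carries Snord15a and Snord15b, C/D snoRNAs at chr7:99482785-99482932 and chr7:99479563-99479707. Their sequences are shown because they are separate RNAs made from the transcripts of genes with large and with small fold changes. Capitals mark the first match to ANANNA in the middle of Snora52 and its last ACA, and in the other snoRNAs the first TGATGA (box C) and the last CTGA (box D), found by a search of the GENCODE M21 genes in mm10.
Snora52: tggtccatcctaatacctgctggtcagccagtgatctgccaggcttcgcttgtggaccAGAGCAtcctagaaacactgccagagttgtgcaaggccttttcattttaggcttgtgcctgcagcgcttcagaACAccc
Snord15a: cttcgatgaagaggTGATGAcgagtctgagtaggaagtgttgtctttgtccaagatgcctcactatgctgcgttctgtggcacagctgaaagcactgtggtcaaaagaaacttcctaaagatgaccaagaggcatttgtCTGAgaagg
Snord15b: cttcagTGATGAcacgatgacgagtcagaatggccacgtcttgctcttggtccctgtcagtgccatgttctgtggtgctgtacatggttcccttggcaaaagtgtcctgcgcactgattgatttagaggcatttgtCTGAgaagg

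Assembled loci of their own were found for snoRNAs of 3 hosts. Snora52 had 1601, 1318 and 6139 normalized counts in chromatin and 818, 597 and 957 in nucleoplasm. Every chromatin value was above every nucleoplasm value, in the opposite direction to the host Rplp2, but the log2 fold change of 1.60 (SE 0.60) did not pass the test (limma adjusted p = 0.0732). Chromatin replicate 3 was far above the other chromatin libraries. Snora69, in Rpl39, had 82.3, 71.3 and 297 in chromatin and 85.9, 46.7 and 97.8 in nucleoplasm, which overlap (log2 fold change 0.71, limma adjusted p = 0.403). Snord4a, in Rpl23a, had 17.3, 13.6 and 29.1 in chromatin and 8.08, 2.40 and 2.90 in nucleoplasm, a rise in chromatin (log2 fold change 2.02, SE 0.56, limma adjusted p = 0.0260) at counts so low that a few reads weigh on it. Libraries of this kind are not made to capture RNAs of snoRNA length, and how well they did so was not tested.

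Other genes of the pathway were described by lists, with counts from the same fit. Of 67 mitochondrial ribosomal protein genes tested, which serve the separate ribosome of mitochondria, 58 were lower in chromatin and 3 were higher, with a median log2 fold change of -1.57. Mrpl34 was lowest at -2.66 (SE 0.12), while Mrps6, Mrps9 and Mrpl1 were higher in chromatin at 1.72, 1.70 and 1.56. Of 22 mRNAs with a TOP motif that encode no component named Rpl or Rps, 18 were lower and 2 higher, with a median of -1.52. Among them the elongation factors Eef1b2 and Eef2 were lower, with log2 fold changes of -2.13 and -1.74, as was Tpt1, the translationally controlled tumour protein, at -2.31. Eif4a2, an RNA helicase of initiation and itself a snoRNA host, had 44144, 32320 and 78876 in chromatin and 11314, 8392 and 8912 in nucleoplasm, and rose by a log2 fold change of 2.35 (SE 0.34). Both lists thus held genes with the opposite direction, which the cytosolic ribosomal protein genes did not.

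Of 44 ribosome biogenesis genes, which build ribosomes in the nucleolus, 22 were lower and 5 were higher, with a median log2 fold change of -0.77. The share lower was close to the 43.4% among assembled protein-coding loci, so the count is no result about this list. Nop10 (-2.52) and Fbl (-1.71), parts of H/ACA and C/D snoRNA particles, were lower. Nmd3 (1.53), the export adaptor of the large subunit, and Nop58 (1.17), a C/D particle protein and snoRNA host, were higher. Of 8 genes listed as ribosomal protein chaperones, 5 were lower and none was higher, beside 43.4% lower among assembled protein-coding loci. With so few genes this count is no result about the list. All 8 estimates were below 0, with a median of -1.0. Among the 8, Grwd1, the chaperone of Rpl3, had a log2 fold change of -1.13 and Bccip, that of Rpl23, of -1.75. Both passed the test. The lists differ from the ribosomal protein genes in length, intron content and level, and no test compared them.

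**Figure D5:**
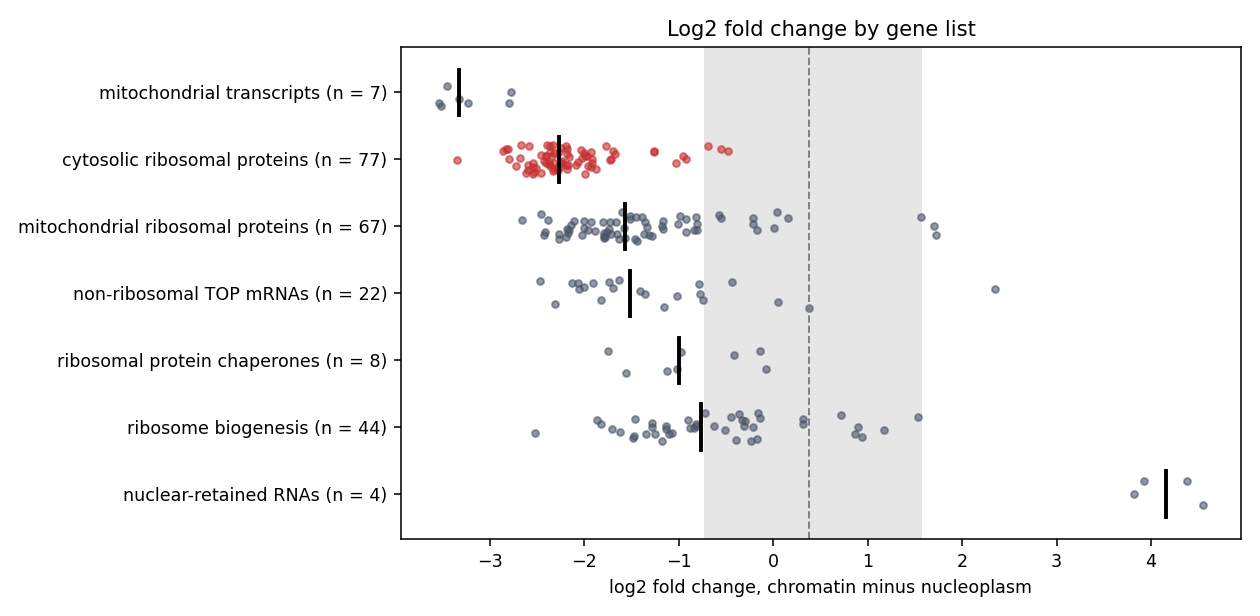
Log2 fold change (chromatin minus nucleoplasm, x axis) of each gene in 7 lists (y axis, number of genes in brackets), with black bars at the medians; the grey band spans the quartiles of all genes tested (-0.72 to 1.56) and the dashed line is their median. The cytosolic ribosomal protein genes (red) lie between the mitochondrial transcripts (median -3.33) and the mitochondrial ribosomal proteins (median -1.57).

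RNAs that mark other compartments moved with the fractions too. The 7 mitochondrially encoded transcripts tested, which are not made in the nucleus, were all lower in chromatin, with a median log2 fold change of -3.33, and took 0.0397% to 0.0830% of the chromatin counts and 0.483% to 0.637% of the nucleoplasm counts. Their share was 9.29-fold higher in nucleoplasm, beside 3.80-fold for the ribosomal protein genes, and their part in the result was not tested. Malat1 and 3 other RNAs known to stay in the nucleus were all higher in chromatin, between 3.82 and 4.55. Gapdh, a spliced mRNA of glycolysis, was lower by 2.07 on the log2 scale. Of the cardiomyocyte markers listed, Actc1, Ryr2, Actn2, Tnni3 and Myl7 were detected in all libraries, and Nppa at 10.4 to 113 normalized counts, while Myh6 and Tnnt2 had no named locus. The 6 tested summed to 133260 to 239306 counts in chromatin and 63468 to 119700 in nucleoplasm, with 2 lower and 2 higher. The fibroblast markers Col1a1, Col3a1, Pdgfra and Dcn were detected as well, with sums of 120627 to 173752 in chromatin and 253737 to 460521 in nucleoplasm, 3 of them lower. The endothelial markers Kdr and Tek had log2 fold changes of -0.82 and -0.22, and the immune marker Csf1r, at 20.3 to 48.6 counts, of -0.72, with limma adjusted p of 0.0771, 0.568 and 0.0902. Col1a2, Pecam1, Cdh5, Ptprc, Cd68 and Adgre1, also on these lists, had no named locus. In both fractions replicate 3, in which most ribosomal protein genes were highest, had the lowest sum of cardiomyocyte markers and the highest sum of fibroblast markers, and the part of this in the result was not tested.

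For chromatin, long reads gave transcript abundances in TPM, with no nucleoplasm library to set against them. Counting models on the strand of the gene with at least 0.5 of their length inside it, 72 of the 77 genes were above 0 in both libraries, and 75 in at least 1. Models of snoRNAs inside a host were counted with it. Rps25 and Rpl9-ps6 had no model inside them on their strand. Same-strand models that touch an exon gave 96.2 and 84.5 TPM for Rps25 and 202 and 160 for Rpl9-ps6. Same-strand models inside the genes summed to 2.22% of the TPM in replicate 1 and 1.99% in replicate 2. Rpl13 was highest with 1102 and 1022 TPM. Rpl13a, with 866 and 936, Rps16, with 890 and 651, and Rps27rt, with 823 and 847, were also among the highest. The sums of Rpl13a include 155 and 94.9 TPM from models that touch none of its exons. By same-strand models that touch an exon it had 711 and 841. The median over the 77 genes was 189 and 191 TPM. Spearman's rho between libraries was 0.92 over the 72 genes, and that of the mean TPM with the short-read chromatin level per kb was 0.30, both given as descriptions. Short-read RNA had been depleted of ribosomal RNA with Ribo-Zero Gold, and long-read RNA with RiboMinus. The long-read RNA was then polyadenylated and primed with poly(T). The part of these differences in the rho of 0.30 was not tested. Rps3, highest per kb in chromatin by short reads, had 60.2 and 65.0 TPM. These sums include 16.2 and 24.3 from the Snord15a model and 21.2 and 17.8 from the Snord15b model. With every same-strand model that touches an exon Rps3 had 363 and 442, above the medians of 267 and 234 by that count. Its place among the genes thus depends on which models are counted. Rpl5, the large-subunit partner of the 5S RNA, had 4.52 and 25.7 from models inside it. Rps27rt was high in long reads and low in short reads, with 982 normalized counts per kb in chromatin.

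The long-read cDNA carries no strand, and models on the opposite strand of these genes summed to 1.40% and 1.46% of the TPM. For 19 genes the opposite strand held more than the strand of the gene in both libraries. Rplp1 was the extreme case, with 279 and 550 TPM on its own strand and 1505 and 2220 on the other. Rplp0 had 501 and 445 on its own strand and 652 and 807 on the other. Both are among the highest genes per kb in the stranded short reads. Rps3 and Rpsa too had more on the other strand, with 130 and 165 for Rps3 and 307 and 409 for Rpsa. Long-read levels of single genes depend therefore on the strand counted, and with both strands 74 of the 77 genes were above 0 in both libraries. When every same-strand model that touches an exon of the gene was taken, all 77 were.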

How the data were processed

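Short reads (50 bp, single end, 100 ng RNA per library) were aligned by the authors with HISAT2 2.1.0 to mm10, assembled and re-estimated with StringTie, and counted with prepDE. The deposited values are those counts divided by a DESeq2 size factor, a normalized signal per gene. All values were whole multiples of 1 read (tolerance 0.001), so reads were recovered, 91657034 to 121773350 per library. These are reads as counted by prepDE from the abundances that StringTie re-estimated. The long-read values are TPM deposited by the authors from StringTie after minimap2 alignment without strand. Other versions are not given in the sources used here.

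Fractions were compared with limma 3.58.1 (R 4.3.3, mean-variance trend, pseudocount 1), two-sided. edgeR 4.0.16 and DESeq2 1.42.0 on recovered reads, other scalings, filters, pseudocounts, overlap rules and left-out libraries were alternatives. The fits were tested on simulated reads with known changes. The precision is limited by 3 libraries per fraction. Replicates differed by more than counting error (chi-square per gene 40 to 219). Members and lists were chosen with earlier results of these data known. Genes were named by level per kb, by lowest and highest log2 fold change, as stalk genes or Rpsa, as paralogues, and where the test was not passed. Others were named after their values were seen. A few genes are not reported here by name. Sequences came from RefSeq and GENCODE M21, with Python 3.11.15.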

Additional observations from a re-analysis of the deposited data

How the results depend on the processing

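The number of ribosomal protein genes lower in chromatin ranged from 72 (without chromatin replicate 1) to 77 (without chromatin replicate 3) when 1 library was left out, and was 74 with edgeR and with DESeq2, 68 on the ERCC scale and 75 with quantile normalization. None was higher in chromatin in any alternative. Of all genes tested, 21.8% were lower without chromatin replicate 3 and 8.67% on the ERCC scale. For the other refits no such share is given here, so shifts in their counts cannot be told from a general change in calls. Chosen after seeing the data, a set without the snoRNA hosts had 50 of 51 lower, that without the intronless copies had 69 of 72, and a minimum mean of 1000 left 72 of 74 lower. The median log2 fold change was -1.53 on the ERCC scale and -2.37 with edgeR, and ranged from -2.40 to -2.15 with 1 library left out. The median of all genes moved with the scaling too, from 0.01 with quantile normalization to 0.84 on the ERCC scale. The ratio of shares, 3.80, was 4.42 without the 20 highest genes and ranged from 3.25 to 4.47 with 1 library left out. Values under alternatives were counted only for genes named by the rules above, not for those named after their values were seen. Of these, 372 stayed on the same side of the threshold, 7 passed it and 1 (Rpl38 on the ERCC scale) no longer did. Outside this count, Rps24, Rps15a, Rpl10, Rpl10a and Rpl12 also no longer passed on the ERCC scale. Rpsa passed with its pseudogenes summed (log2 fold change -1.22) and with quantile normalization (-1.12). Rplp2 moved from -2.83 to -1.68 with the locus inside it added.

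The libraries of both fractions share replicate numbers, and the labels do not say that a number marks a culture. Deviations of same-numbered libraries correlated at 0.097, 0.088 and 0.222, not all above 0.1, and those of other pairs at -0.138 to 0.061, so that every library correlated best with its own number. The numbers were not used as a pairing. With the replicate number as a block, 75 of 77 genes were lower in limma and in edgeR, with medians of -2.27 and -2.37, and Rpl22l1 passed the test. In edgeR with the block, 34 of the 44 biogenesis genes were lower and 1 TOP mRNA was higher. No share of all genes lower with the block is given here. These counts therefore cannot be told from a general rise in calls.

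For the lists, the more than 4-fold threshold left 16 mitochondrial ribosomal proteins, 5 TOP mRNAs and 1 biogenesis gene lower, and 0, 1 and 0 higher. On the ERCC scale 11 TOP mRNAs and 4 biogenesis genes were lower, and 5 mitochondrial ribosomal proteins were higher. A single TOP mRNA was higher (1) without the trend, with quantile normalization, and with edgeR (1 to 2 with a library left out, the lowest without chromatin replicate 1), and 3 biogenesis genes were higher with no filter. The cause of these shifts was not tested. Long-read TPM has no depth or nucleoplasm library beside it, which limits it to description.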
